A study of Mus musculus with 12 samples.

Results

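The 10 genes described here belong to lipid droplet storage and breakdown and were measured in mouse fibroblasts with and without oxygen: Hilpda, G0s2, Plin2, Plin3, Plin4, Plin5, Pnpla2, Abhd5, Dgat1 and Dgat2. They were taken by gene symbol from a table of raw read counts in which all 10 were found among 54446 genes. RNA-seq libraries came from NIH3T3, an established mouse embryonic fibroblast line, in its wild-type form, and from ΔN-VEGF cells, which are NIH3T3 cells with the N-VEGF coding region deleted on both alleles. N-VEGF is the amino-terminal piece that is cleaved from a long form of the growth factor VEGF. Each line was kept for 16 h in normoxia (air) or in hypoxia (below 0.2% oxygen), with 3 samples in each of the 4 groups and 12 in all. The deleted line was made with Cas9 and 2 donor cassettes, and 2 single-cell clones were then treated with a Cre enzyme to remove the cassettes and sorted. Whether the sequenced cells were 1 clone or both is not given in the sources used here, so the deletion and what is peculiar to a clone cannot be told apart. The labels do not say that the triplicates were separate cultures, and the p-values then measure only the spread between these samples, which may be technical.

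A lipid droplet is a store of neutral fat, mainly triglyceride and sterol ester, wrapped in a single layer of phospholipid and a coat of proteins. The last step of triglyceride synthesis is made by DGAT1 and DGAT2, an unrelated pair of enzymes that join an acyl chain to diacylglycerol. The perilipins (PLIN2 to PLIN5 among these genes) sit on the droplet surface and limit the access of lipases. The first step of breakdown is made by PNPLA2, also called ATGL, which is activated by ABHD5 (CGI-58) and inhibited by G0S2 and HILPDA. Hilpda and Plin2 are known targets of hypoxia-inducible factors, and cells that cannot burn fatty acids for want of oxygen are known to store them in droplets.

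The promoter sequences of 3 members are shown because they hold, or lack, the core of the hypoxia response element, the letters that hypoxia-inducible factors bind. The core was searched as ACGTG or GCGTG on either strand in the 250 bases before each RefSeq start (build GRCm38.p6), and 8 of the 10 members had a window in the RefSeq table. Capitals mark the core, and for Plin2 they mark its reverse complement, since the core lies on the strand opposite to the gene. The Hilpda stretch at chr6:29272579-29272625 (plus strand) ends just before the second of its annotated starts, and 30 of its bases also lie in the leader of the transcript from the first. The Plin2 window is chr4:86670060-86670309 (minus strand, printed in the direction of the gene), and the Pnpla2 window, which holds no core, is chr7:141454938-141455187 (plus strand).
Hilpda: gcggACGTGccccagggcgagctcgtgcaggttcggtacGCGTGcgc
Plin2: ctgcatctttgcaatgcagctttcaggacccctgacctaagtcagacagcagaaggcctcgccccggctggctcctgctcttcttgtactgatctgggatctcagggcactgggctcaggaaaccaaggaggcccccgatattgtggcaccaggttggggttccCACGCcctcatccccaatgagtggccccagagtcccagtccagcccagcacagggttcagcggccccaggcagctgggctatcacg
Pnpla2: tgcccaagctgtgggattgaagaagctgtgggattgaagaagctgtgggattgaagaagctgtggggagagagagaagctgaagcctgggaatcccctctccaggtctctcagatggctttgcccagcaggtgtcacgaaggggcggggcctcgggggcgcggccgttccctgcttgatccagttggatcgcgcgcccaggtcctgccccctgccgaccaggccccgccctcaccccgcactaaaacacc

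The window of the second Hilpda start held 3 cores, whose first letters on the printed strand lie 111, 43 and 8 bases before the start, and the window of the first start held 0. Plin2 held 1 core at 86 bases, G0s2 1 at 142 bases and Abhd5 1 at 18 bases before the start. Each of the 2 Plin5 windows held 1 core, while Plin3, Plin4 and Pnpla2 held 0. So short a word is common: 38.6% of all 32851 windows held it, and 41.5% of 27025 genes had it in at least 1 window. A match describes the letters only, and the count of cores was not tested against the expression values below.

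The cells carried the markers of fibroblasts and little of other cell types. All 6 fibroblast markers were tested, and their summed level was 16757 to 23129 CPM (counts scaled to the library total after TMM scaling) in the wild-type normoxia samples and 26820 to 29064 in hypoxia. The ΔN-VEGF line had 19751 to 21107 and 40440 to 42545 CPM. In wild-type cells 1 of the 6 passed the test upwards after hypoxia (Vim, from a mean of 6157 to 14174 CPM) and 1 downwards (Pdgfrb, from 106 to 27.7 CPM), while in ΔN-VEGF cells 4 rose and 2 fell. Of all genes tested, 18.2% were called higher and 18.3% lower in wild-type cells, and 26.9% and 26.4% in ΔN-VEGF cells. Of 6 adipocyte markers, 4 (Adipoq, Cfd, Lep and Cidec) had at most 3 counts in every sample and the summed level was 0.0735 to 0.908 CPM, with Plin1, the perilipin of fat cells, at 0 to 9 counts. Of the 4 macrophage markers, Ptprc and Adgre1 had at most 2 counts in any sample. The other two, Csf1r and Cd68, brought the macrophage sum from 4.85 to 13 CPM up to 35.5 to 35.8 CPM after hypoxia in wild-type cells, and from 6.62 to 9.33 CPM up to 54.5 to 59.0 CPM in ΔN-VEGF cells. The endothelial sum, mostly Cdh5, moved the same way, to at most 25.0 CPM, with Kdr at 0 or 1 count. The epithelial sum was 0.355 to 2.42 CPM, with Epcam at 0. Their part in the results below was not tested. In bulk RNA, a change in the number of cells of a type and a change in RNA per cell cannot be told apart.

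Libraries held 30519052 to 43056690 counts on genes. Replicate 2 of wild-type normoxia stood apart: it correlated with the other two of its group at r = 0.956 and 0.957 across genes, while those correlated at 0.996 with each other and every pair in the other groups at 0.986 or more. A chi-square of the counts per gene was 335 and 358 for its pairs and 6.19 for the other pair of its group. Replicate 2 of ΔN-VEGF normoxia stood apart to a lesser degree, at 77.3 and 71.5 against 3.94. Pairs with replicate 2 also had the higher values in wild-type hypoxia (15.7 and 17.1 against 2.86) and in ΔN-VEGF hypoxia (7.67 and 8.12 against 4.34). All levels are CPM after TMM scaling, which sets the libraries against each other on the assumption that most genes do not change. Vegfa, the gene that carries the deletion, was counted over its whole length, so its counts do not check the deletion. Its level was 86.2, 39.4 and 82.6 CPM in wild-type normoxia, 277, 272 and 291 in wild-type hypoxia, 37.3, 34.2 and 35.5 in ΔN-VEGF normoxia, and 437, 419 and 430 in ΔN-VEGF hypoxia. Replicate 2 of wild-type normoxia thus lay near the ΔN-VEGF normoxia samples for Vegfa, and it did so for Hilpda too. For Plin4 it lay the other way, at 0.372 CPM, the lowest of its group, against 1.23 to 2.01 CPM in ΔN-VEGF normoxia. For Plin3 (94.6 CPM) and Dgat2 (4.78 CPM) it lay below all other normoxia samples of both lines. For Plin2, Pnpla2 and Dgat1 it lay within the range of ΔN-VEGF normoxia, and for Abhd5 just below it. Whether the library matches its label was not tested.

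**Figure D1:**
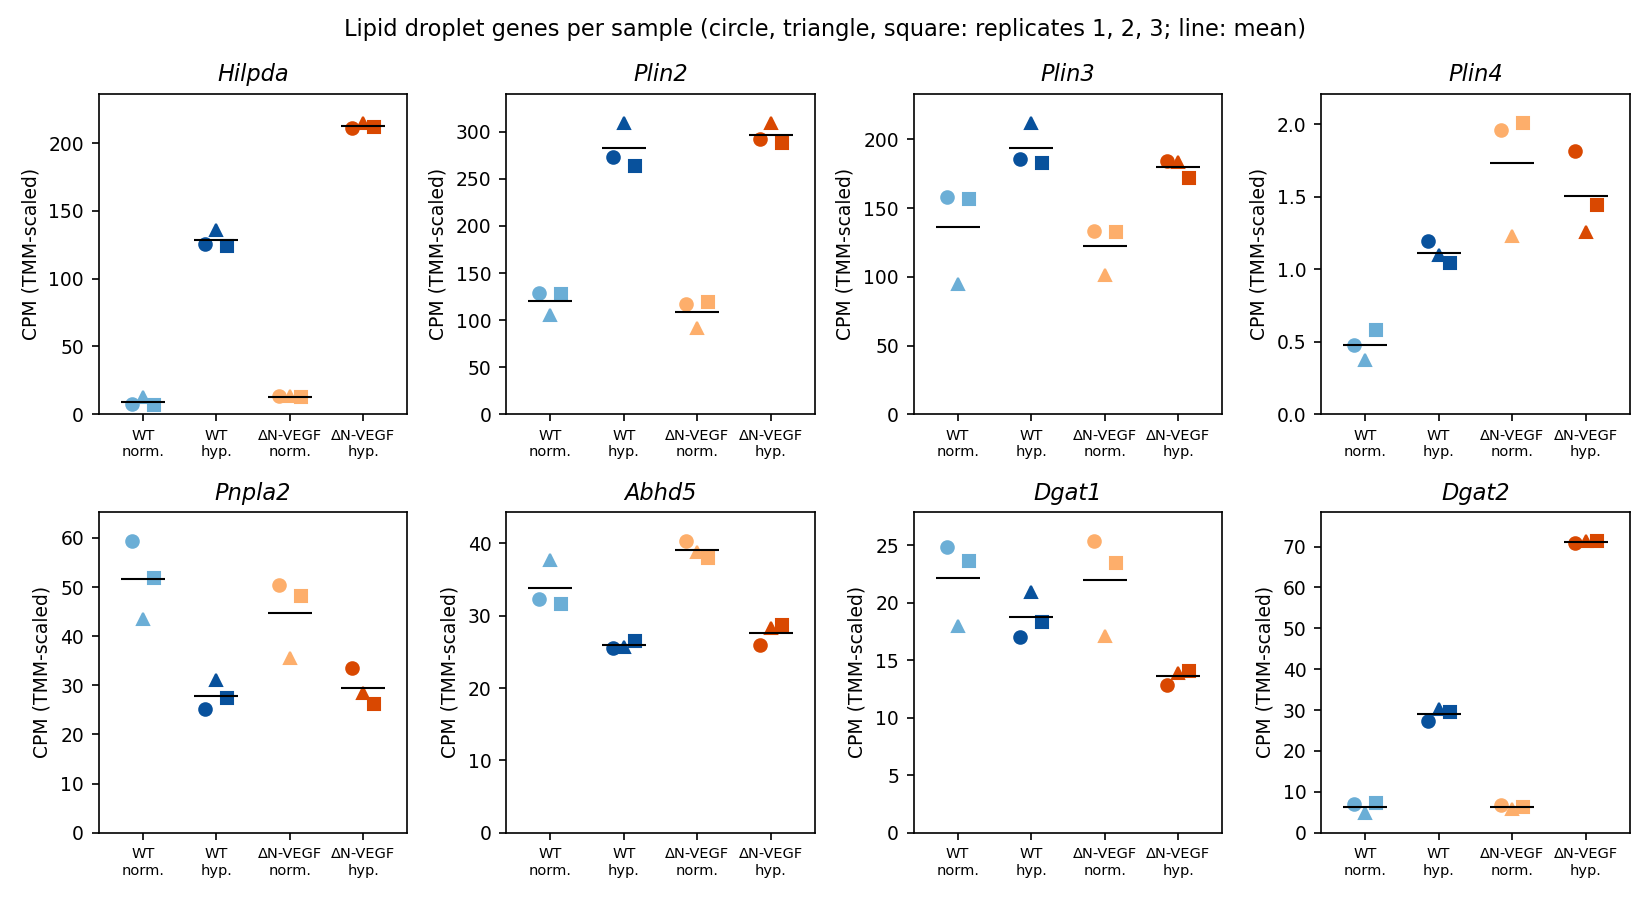
Level of the 8 tested members in each of the 12 samples, in CPM after TMM scaling (linear axes from 0), with 1 panel a gene; points are samples, their shape gives the replicate number, and the line is the mean of the 3 samples of a group. Hilpda lies between 6.70 and 13.5 CPM in all 6 normoxia samples and between 124 and 215 CPM in the hypoxia samples, and Dgat2 is highest in ΔN-VEGF hypoxia, at 70.8 to 71.3 CPM.

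The main question was how the members responded to hypoxia in wild-type cells. Of the 8 members that passed the filter on low counts, 5 rose (Hilpda, Plin2, Plin3, Plin4 and Dgat2), 2 fell (Pnpla2 and Abhd5) and Dgat1 did not pass the test (edgeR's quasi-likelihood test, Benjamini-Hochberg adjusted p below 0.05 over 14724 genes). Across all genes tested, 18.2% were called higher and 18.3% lower in this comparison. The median log2 change was 0.86 over the 8 members and -0.07 over all genes. In ΔN-VEGF cells 4 members rose (Hilpda, Plin2, Plin3 and Dgat2), 3 fell (Pnpla2, Abhd5 and Dgat1) and Plin4 did not pass the test, against 26.9% of all genes called higher and 26.4% lower. The median there was 0.18 over the members and -0.01 over all genes. Scaling by total counts in place of TMM moved the median of all genes to -0.30 for the wild type and -0.41 for the ΔN-VEGF line, and the share of calls that were higher from 49.8% to 28.2% and from 50.5% to 25.6%. Under that scaling the directions of all 8 members after hypoxia stayed as they were in both lines, and Plin3 lost its call in both. The 10 hypoxia reference genes (glycolysis and other known targets of hypoxia-inducible factors) all rose, with log2 changes of 2.39 to 5.42 for the wild type and 1.93 to 5.84 for the ΔN-VEGF line.

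Hilpda, the hypoxia-inducible inhibitor of ATGL, had the largest change among the members in both lines. In wild-type cells its level was 7.44, 12.7 and 6.70 CPM in normoxia and 126, 136 and 124 CPM in hypoxia. The corresponding levels without N-VEGF were 13.3, 13.5 and 12.5 CPM in normoxia and 211, 215 and 212 CPM in hypoxia. Every hypoxia sample lay far above every normoxia sample, and the ΔN-VEGF hypoxia samples lay above those of wild-type hypoxia with no overlap. The rise was 14.4-fold in wild-type cells (log2 change 3.85 ± 0.21 SE, edgeR adjusted p = 2.7e-07) and 16.2-fold in ΔN-VEGF cells (4.02 ± 0.21, edgeR adjusted p = 1.0e-07). Without replicate 2 of wild-type normoxia the wild-type rise was 4.19 on the log2 scale.

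The second inhibitor of ATGL, G0s2, had 0 counts in all 12 samples, in normoxia and hypoxia alike. A count of 0 allows up to 3 counts per library, which is 0.058 to 0.103 CPM here, so G0s2 RNA was not detectable at this depth. The gene (chr1:193272161-193273217, minus strand) lies inside the span of Lamb3 on the other strand and shares no exonic base with it. Of these inhibitors, Hilpda was thus the one with measurable RNA in these cells.

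Among the coat proteins, Plin2 is the perilipin found on droplets of most cells and Plin3 (TIP47) the one that also occurs free in the cytosol. Plin2 stood at 129, 105 and 127 CPM in wild-type normoxia and 274, 310 and 264 CPM in hypoxia. In the ΔN-VEGF line it stood at 117, 91.7 and 119 CPM and rose to 293, 309 and 288 CPM. The normoxia and hypoxia samples did not overlap in either line, and replicate 2 was the lowest of its group in both normoxia groups. The log2 change was 1.23 ± 0.12 in wild-type cells (edgeR adjusted p = 2.3e-05) and 1.44 ± 0.12 in ΔN-VEGF cells (edgeR adjusted p = 3.7e-06).

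Plin3 moved less. Its level was 158, 94.6 and 157 CPM in wild-type normoxia, 186, 212 and 183 in hypoxia, 133, 101 and 133 in ΔN-VEGF normoxia, and 184, 184 and 172 in ΔN-VEGF hypoxia. The normoxia and hypoxia samples of a line did not overlap, yet replicate 2 of each normoxia group was far below its companions. The log2 change was 0.50 ± 0.18 in wild-type cells (edgeR adjusted p = 0.0497) and 0.56 ± 0.18 in ΔN-VEGF cells (edgeR adjusted p = 0.024). The wild-type call was lost in 14 of the 21 alternatives, with total counts giving 0.25 (edgeR adjusted p = 0.38) and the other 13 a change of 0.44 to 0.55, while without replicate 2 of wild-type normoxia the change was 0.30 (edgeR adjusted p = 0.034). The ΔN-VEGF call was lost in 6 alternatives, among them leaving out replicate 2 of ΔN-VEGF normoxia (0.43, edgeR adjusted p = 0.089) and total counts (0.15, edgeR adjusted p = 0.59).

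Plin4, a perilipin best known from fat and muscle, was near the lower end of what these libraries measure, with 16 to 91 counts per sample. It had 0.479, 0.372 and 0.578 CPM in wild-type normoxia and 1.19, 1.1 and 1.04 CPM in hypoxia. ΔN-VEGF samples had 1.96, 1.23 and 2.01 CPM in normoxia and 1.82, 1.25 and 1.44 CPM in hypoxia. Wild-type normoxia was the lowest group and overlapped with no other, while the ΔN-VEGF groups overlapped with each other. The log2 change of Plin4 after hypoxia was 1.21 ± 0.26 in wild-type cells (edgeR adjusted p = 0.0042), and in ΔN-VEGF cells the change was -0.20 ± 0.24 (edgeR adjusted p = 0.50). Plin4 shares 17 exonic bases with Hdgfl2 on the other strand, and as the libraries do not mark strand, reads in those bases cannot be assigned to either gene. Plin5, the perilipin of cells that burn much fat, had 0 to 3 counts in any sample and 14 in all, and was not tested.

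The lipase and its activator fell in both lines. Pnpla2, which encodes ATGL, went from 59.3, 43.6 and 51.9 CPM in wild-type normoxia to 25.1, 31.1 and 27.5 CPM in hypoxia. The ΔN-VEGF line went from 50.3, 35.6 and 48.3 CPM to 33.6, 28.5 and 26.1 CPM. The gap between the groups was narrow in ΔN-VEGF cells, where normoxia replicate 2 lay just above the highest hypoxia sample. The log2 change was -0.89 ± 0.16 in wild-type cells (edgeR adjusted p = 0.0016) and -0.61 ± 0.16 in ΔN-VEGF cells (edgeR adjusted p = 0.0090).

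Abhd5, the activator of ATGL, had 32.4, 37.6 and 31.6 CPM in wild-type normoxia and 25.6, 25.6 and 26.5 in hypoxia. ΔN-VEGF samples held 40.3, 38.8 and 38.0 CPM in normoxia and 25.9, 28.3 and 28.7 in hypoxia. Each hypoxia group lay below its normoxia group without overlap, with a log2 change of -0.39 ± 0.09 in wild-type cells (edgeR adjusted p = 0.0071) and -0.50 ± 0.09 in ΔN-VEGF cells (edgeR adjusted p = 0.00096). Abhd5 shares 950 exonic bases with the antisense gene A730085K08Rik, and the libraries do not mark strand, so the reads of the pair cannot be told apart there and its level is uncertain.

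The final enzymes of triglyceride synthesis went different ways. Dgat2, which works at the droplet as well as the endoplasmic reticulum, had 7.05, 4.78 and 7.28 CPM in wild-type normoxia and 27.4, 30.3 and 29.6 CPM in hypoxia. Without N-VEGF it had 6.72, 5.92 and 6.20 CPM in normoxia and 70.8, 71.3 and 71.3 CPM in hypoxia. The normoxia groups overlapped, and the hypoxia groups were apart from them and from each other. The rise was 4.56-fold in wild-type cells (log2 change 2.19 ± 0.15, edgeR adjusted p = 1.1e-06) and 11.3-fold in ΔN-VEGF cells (3.50 ± 0.15, edgeR adjusted p = 2.8e-08).

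Dgat1, the enzyme of the endoplasmic reticulum, had 24.8, 18.0 and 23.7 CPM in wild-type normoxia and 17.0, 21.0 and 18.3 CPM in hypoxia, which overlapped. The ΔN-VEGF samples went from 25.4, 17.1 and 23.5 CPM to 12.8, 13.9 and 14.1 CPM, with no overlap. The log2 change was -0.24 ± 0.16 in wild-type cells (edgeR adjusted p = 0.28) and -0.69 ± 0.17 in ΔN-VEGF cells (edgeR adjusted p = 0.0048). Without replicate 2 of wild-type normoxia the wild-type change was -0.37 (edgeR adjusted p = 0.045). For the other members that passed the test in wild-type cells, leaving out that library kept the calls, with log2 changes of 1.15 for Plin2, 1.07 for Plin4, -0.99 for Pnpla2, -0.30 for Abhd5 and 2.02 for Dgat2.

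**Figure D2:**
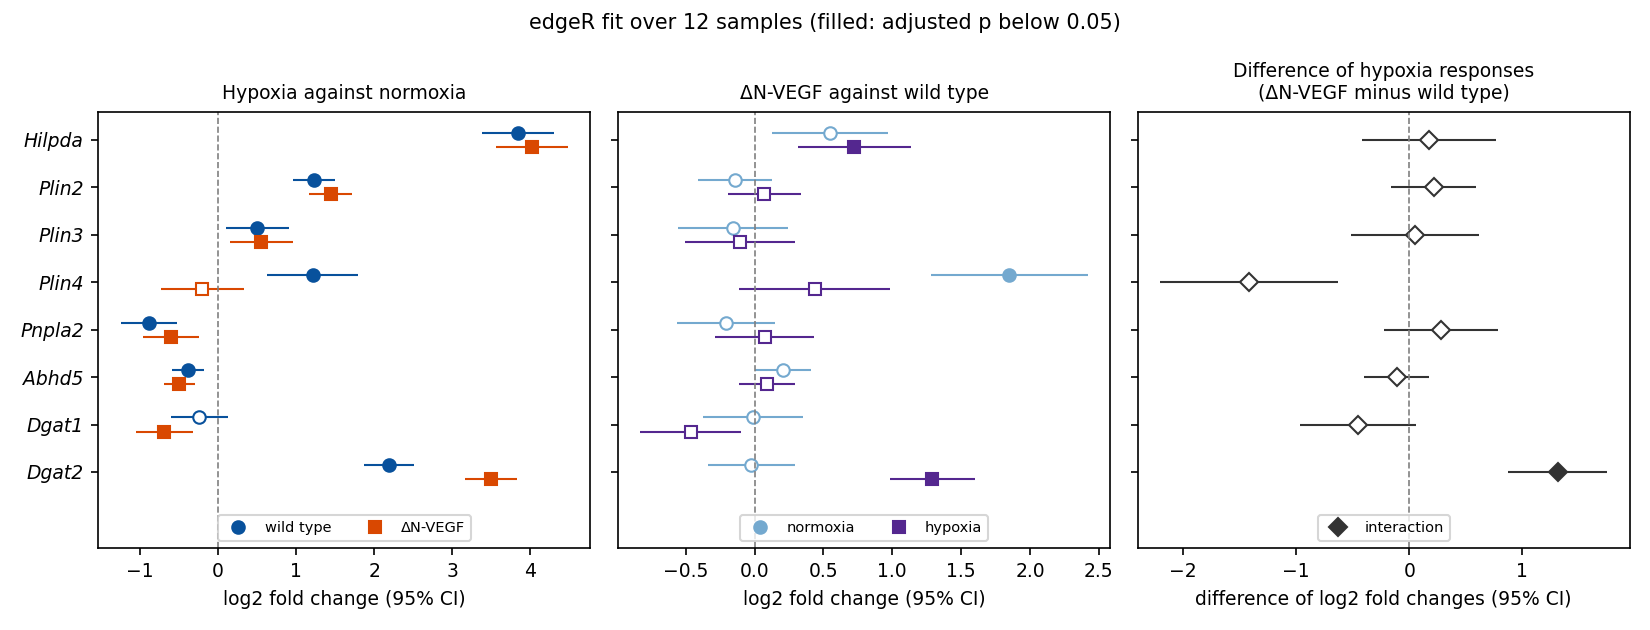
Log2 fold changes of the 8 tested members with 95% confidence intervals (n = 3 samples a group): hypoxia against normoxia in each line (left), the lines against each other in normoxia and in hypoxia (middle), and the difference of the hypoxia responses between the lines (right); filled symbols have an adjusted p below 0.05. Dgat2 is the 1 member with a filled symbol on the right, at 1.31, and Plin4 the 1 member filled in normoxia in the middle panel, at 1.85.

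The next comparison asked whether the deletion changed the members before hypoxia. In normoxia 1 of the 8 tested members, Plin4, differed between the lines, where 1.39% of all genes were called higher and 2.97% lower in ΔN-VEGF cells. The median log2 difference was -0.02 over the members and -0.03 over all genes. Plin4 was 3.61-fold higher in ΔN-VEGF cells (log2 difference 1.85 ± 0.26, edgeR adjusted p = 0.0036). A fit of the 6 normoxia samples alone gave the same difference of 1.86 with an edgeR adjusted p of 0.17. With the replicate number added as a block it was 1.85 with an edgeR adjusted p of 0.14. Those fits called 15 genes of 13934 (0.108%) and 1 gene. The block was tried because deviations of same-numbered normoxia samples correlated, which the odd samples numbered 2 alone could bring about. Without replicate 2 of wild-type normoxia the Plin4 difference was 1.71 (edgeR adjusted p = 0.00023). For the other 7 members the intervals of the difference reached from -0.56 at the lowest to 0.97 at the highest. Hilpda was 0.55 ± 0.19 higher on the log2 scale (edgeR adjusted p = 0.14) with all samples and 0.90 higher without replicate 2 of wild-type normoxia (edgeR adjusted p = 6.0e-06). Without that library Plin3 also was called, at -0.35 (edgeR adjusted p = 0.018), and so was Abhd5, at 0.30 (edgeR adjusted p = 0.0049), which made 4 members in place of 1. In that fit 48.9% of all genes were called, against 4.36% with all samples.

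In hypoxia 2 members were higher in the ΔN-VEGF line than in the wild type and 0 were lower, where 10.8% of all genes were called higher and 9.36% lower. With total counts the share of calls that were higher in ΔN-VEGF hypoxia went from 53.5% to 17.1% and the median over all genes from -0.01 to -0.23. Dgat2 was 2.45-fold higher (log2 difference 1.29 ± 0.14, edgeR adjusted p = 0.00025, and 1.07 with total counts). Hilpda was 1.65-fold higher (0.72 ± 0.19, edgeR adjusted p = 0.020, and 0.50 with total counts). The Hilpda call was lost on leaving out any 1 of the 6 hypoxia samples (edgeR adjusted p = 0.053 to 0.085), while the difference itself stayed between 0.70 and 0.76. Dgat1 was lower by -0.46 ± 0.17 in hypoxia with no overlap between the samples, which did not pass the test (edgeR adjusted p = 0.073) but did in 5 alternatives (total counts, only the 6 samples compared, and without replicate 2 of wild-type normoxia, of ΔN-VEGF normoxia or of both), with edgeR adjusted p from 6.5e-05 to 0.034 and differences from -0.68 to -0.46. Plin2 differed by 0.07 (95% interval -0.20 to 0.34) and Pnpla2 by 0.07 (-0.29 to 0.43), and both took the opposite sign with total counts.

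Last, the hypoxia responses of the lines were compared with each other. Dgat2 was the 1 member of 8 whose response differed, with 3.36% of all genes called in either direction. Its log2 response was larger by 1.31 ± 0.20 in ΔN-VEGF cells (edgeR adjusted p = 0.0089), and leaving out samples gave 1.20 to 1.47, the highest value without replicate 2 of wild-type normoxia. The Plin4 response was smaller by -1.42 ± 0.36 in ΔN-VEGF cells (edgeR adjusted p = 0.057). It passed the test with DESeq2 (Wald test, adjusted p = 0.012), with the replicate block (edgeR adjusted p = 0.043), with total counts (edgeR adjusted p = 0.045) and without replicate 2 of wild-type normoxia (-1.28, edgeR adjusted p = 0.010). The Hilpda responses differed by 0.17 (95% interval -0.41 to 0.76), a difference that was -0.18 without replicate 2 of wild-type normoxia and -0.03 with total counts. For Plin2, Plin3, Pnpla2 and Abhd5 the differences were 0.22, 0.05, 0.28 and -0.11, none of which passed the test. The Dgat1 responses differed by -0.45 (95% interval -0.96 to 0.06, edgeR adjusted p = 0.30). Without both normoxia samples numbered 2 the Dgat1 difference was -0.48 (edgeR adjusted p = 0.0020), in a fit where 52.8% of all genes were called.

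The order of the members by level changed with hypoxia when counts were set per kilobase of exon. In wild-type normoxia Plin3 (36.1 ± 9.6 SD CPM per kb) and Plin2 (34.3 ± 3.8) led and did not differ beyond their spread. Pnpla2 followed at 17.1 ± 2.6, then Hilpda (8.12 ± 2.98), Dgat1 (7.25 ± 1.19) and Abhd5 (5.68 ± 0.55), whose samples overlapped, Dgat2 at 2.07 ± 0.45 and Plin4 at 0.082 ± 0.018. The other two samples, without replicate 2, put Plin3 (mean 41.6) above Plin2 (36.5) and Dgat1 (7.93) above Hilpda (6.41), with no overlap in either pair. In wild-type hypoxia Hilpda came first at 117 ± 6 CPM per kb, before Plin2 (80.4 ± 6.9) and Plin3 (51.1 ± 4.3). Dgat2 at 9.43 ± 0.50 then stood level with Pnpla2 at 9.24 ± 0.99, within their spread. In ΔN-VEGF hypoxia the order of the first 5 was the same, with Hilpda at 193 ± 2 CPM per kb and Dgat2 at 23.1 ± 0.1 against Pnpla2 at 9.73 ± 1.26.

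Ratios within a sample do not depend on how the libraries are scaled. The ratio of Hilpda to Pnpla2, the inhibitor to the lipase, per kilobase was 0.343, 0.799 and 0.353 in wild-type normoxia and 13.7, 12 and 12.3 in hypoxia. The ΔN-VEGF ratios were 0.724, 1.04 and 0.709 in normoxia and 17.2, 20.7 and 22.2 in hypoxia. The ratio was thus at most 1.04 in the 6 normoxia samples and at least 12 in the 6 hypoxia samples. The ratio of Dgat2 to Dgat1 was 0.263 to 0.305 in wild-type normoxia, 1.43 to 1.60 in wild-type hypoxia, 0.262 to 0.343 in ΔN-VEGF normoxia and 5.01 to 5.47 in ΔN-VEGF hypoxia. Dgat1 RNA led in all 6 normoxia samples and Dgat2 RNA in all 6 hypoxia samples, and the hypoxia groups did not overlap. The smallest p an exact permutation test of 3 against 3 samples allows is 0.1, and the ratios are given as values with no test.

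**Figure D3:**
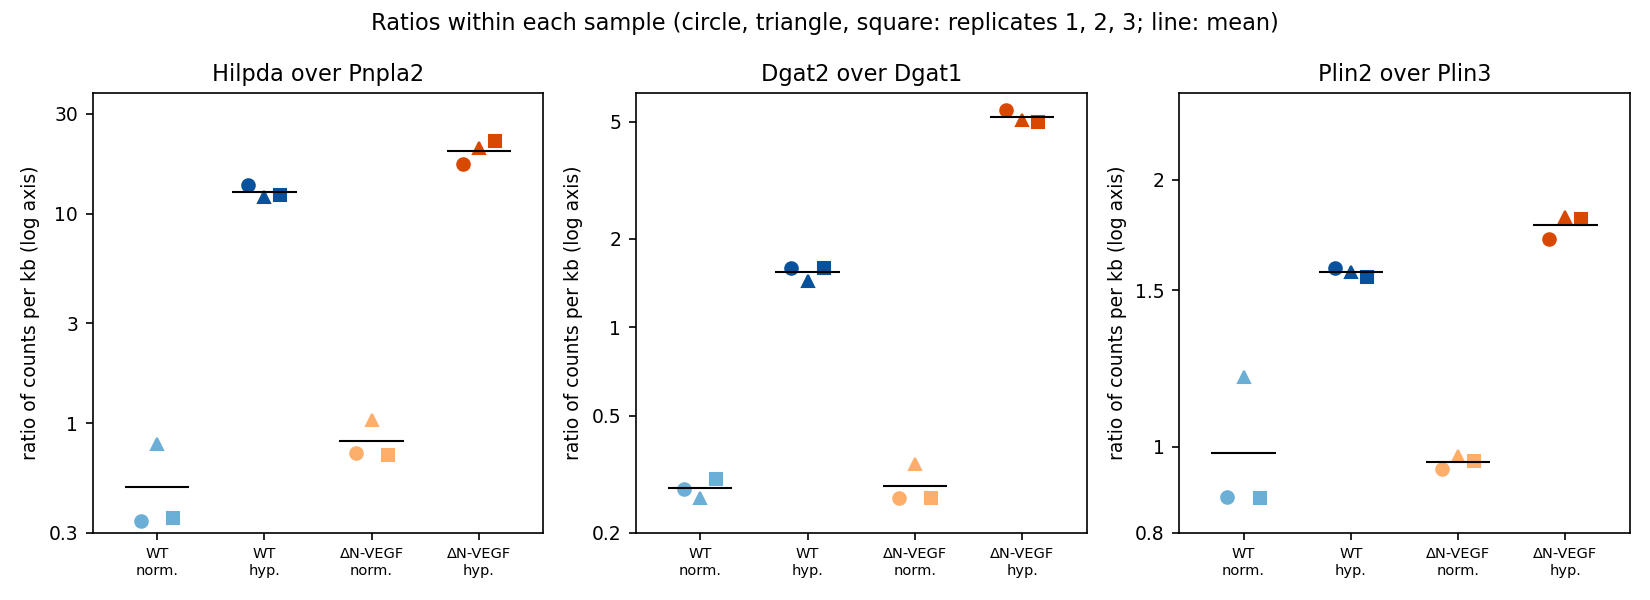
Ratio of the counts per kilobase of 2 genes within each of the 12 samples (log axes), for Hilpda over Pnpla2, Dgat2 over Dgat1 and Plin2 over Plin3; points are samples, their shape gives the replicate number, and the line is the mean of the 3 samples. Dgat2 over Dgat1 is below 1 in every normoxia sample and 1.43 to 5.47 in the hypoxia samples, and Plin2 over Plin3 is 0.876 to 1.20 in normoxia and 1.55 to 1.81 in hypoxia.

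Within the perilipins the mix shifted towards Plin2. Its share of the summed counts per kilobase of Plin2 to Plin5 was 49.3% ± 4.5 (SD, n = 3) in wild-type normoxia and 61.0% ± 0.3 in hypoxia. In ΔN-VEGF cells the share was 48.8% ± 0.4 and 63.9% ± 0.8. The share of Plin3 went from 50.6% ± 4.5 to 38.8% ± 0.3 and from 50.7% ± 0.4 to 35.9% ± 0.7, and Plin4 and Plin5 each had at most 0.502% in any sample. The ranges of Plin2 in normoxia and hypoxia did not overlap in either line, although replicate 2 of wild-type normoxia reached 54.5%. Without it the wild-type normoxia share of Plin2 was 46.7% and that of Plin3 53.2% (means of 2 samples).

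The genes most like Hilpda over the 12 samples, by Pearson's r of log2 CPM among 8522 genes of at least 10 CPM on average, were Pfkl (r = 0.9995), Gpi1 (0.9993) and Vgll4 (0.9987). Pfkl and Gpi1 encode enzymes of glycolysis, and Vgll4 a cofactor of TEAD transcription factors. For Plin2 they were Gmppa (0.9952), an enzyme subunit of sugar nucleotide supply, Adm (0.9951), which encodes the peptide adrenomedullin, and Ndrg1 (0.9936), a gene of the stress response. As the 12 points fall into 4 groups, many genes reached high values: 543 had r above 0.95 with Hilpda and 408 with Plin2. G0s2 has no such list, since it did not vary.

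Other genes of fat handling were counted in lists of the pathway, 84 genes in 7 lists, of which 66 were tested. In all, 12 rose and 22 fell in wild-type and 17 rose and 22 fell in ΔN-VEGF hypoxia. These counts, and those of each list below, stand against 18.2% of all genes called higher and 18.3% lower in wild-type cells and 26.9% higher and 26.4% lower in ΔN-VEGF cells. A gene given below for 1 line did not pass the test in the other, which does not show that the lines differ. Without replicate 2 of wild-type normoxia 16 rose and 30 fell in wild-type hypoxia, where 54% of all genes were called in place of 36.5%. In the 14 tested genes that build diacylglycerol from acyl chains and glycerol, 4 rose and 2 fell in wild-type and 7 rose and 1 fell in ΔN-VEGF hypoxia. Gpat2, a mitochondrial acyltransferase, had log2 rises of 3.17 (wild type) and 3.80 (ΔN-VEGF) from 2 to 13 counts per normoxia sample, and Lpin3, a phosphatidate phosphatase, by 1.37 and 2.30. Agpat3, an acyltransferase, fell in both lines (-0.66 and -0.68), and Gpd1, which makes glycerol phosphate, fell in wild-type cells (-1.52, on 2 to 12 counts). The median of the list was 0.36 for the wild type and 0.44 without N-VEGF.

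Of the 5 tested lipases and lipolysis genes other than Pnpla2 and Abhd5, 0 rose and 2 fell in each line. They were Pnpla7, a lysophospholipase (-0.72 for the wild type and -0.54 without N-VEGF), and Ddhd2, a lipase (-0.29 and -0.26). Among 11 other droplet proteins, 1 rose and 4 fell for the wild type, 2 rose and 5 fell for the ΔN-VEGF line. Bscl2, which encodes the droplet assembly protein seipin, rose by 0.49 in each line, and Rab18, a droplet GTPase, by 0.35 in ΔN-VEGF cells. Mettl7a1 fell in both lines (-0.82 and -1.04). So did Fitm2, which promotes droplet budding (-0.78 and -0.54), and Spast, a microtubule-severing enzyme with a droplet-bound form (-0.42 and -0.73).

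Of the 3 genes of sterol esters, the other neutral fat of droplets, 2 rose and 1 fell in wild-type and 1 rose and 1 fell in ΔN-VEGF cells. Soat1, which makes the esters, rose by 2.02 and 2.45 in wild-type and ΔN-VEGF cells, and Soat2, its relative, by 1.54 in wild-type cells on 9 to 39 counts per sample. Nceh1, which splits the esters, fell in each line (-1.01 in both). Of 11 genes of fatty acid uptake, binding and activation, 2 rose and 6 fell in wild-type and 2 rose and 4 fell in ΔN-VEGF cells. Slc27a4, a fatty acid transport protein, rose by 2.28 and 2.45, the binding protein gene Fabp5 by 1.37 in wild-type cells, and Fabp4 by 2.41 in ΔN-VEGF cells on 0 to 11 counts. The Fabp5 value rests on replicate 2 of wild-type normoxia, which had 318 CPM against 72.9 and 71.2 in its companions, and without it the rise was 2.47. Lpl, the secreted lipoprotein lipase, and Slc27a1 fell in wild-type cells (-1.16 and -0.89). Dbi, the acyl-CoA binding protein, fell in both lines (-0.65 and -1.88), and Acsl5, an acyl-CoA synthetase, in ΔN-VEGF cells (-0.98).

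Of 13 genes of mitochondrial fatty acid oxidation, 0 rose and 5 fell in wild-type and 1 rose and 6 fell in ΔN-VEGF cells, where 18.3% and 26.4% of all genes tested were called lower. Cpt1a, the gate of fatty acid entry into mitochondria, fell in both lines (-1.77 and -1.08), and by -2.14 in wild-type cells without replicate 2 of normoxia. Slc25a20, the carnitine carrier (-0.66 for the wild type and -0.60 without N-VEGF), and Acadl, a dehydrogenase of long acyl chains (-0.59 and -1.11), also fell in both, and Cpt2, the inner-membrane partner of Cpt1a, rose by 0.66 in ΔN-VEGF cells. Of 9 transcription factors and cofactors of lipid storage, 3 rose and 2 fell in wild-type and 4 rose and 3 fell in ΔN-VEGF cells. Srebf1, a driver of fatty acid synthesis, rose by 1.20 and 1.48 and Ppard, a fatty acid receptor, by 0.72 and 1.26, while Ppargc1a, a cofactor of mitochondrial genes, fell (-3.81 and -2.14) to 1 to 5 counts per sample. Rxra, a partner of nuclear receptors, also fell (-0.72 and -0.97).

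**Figure D4:**
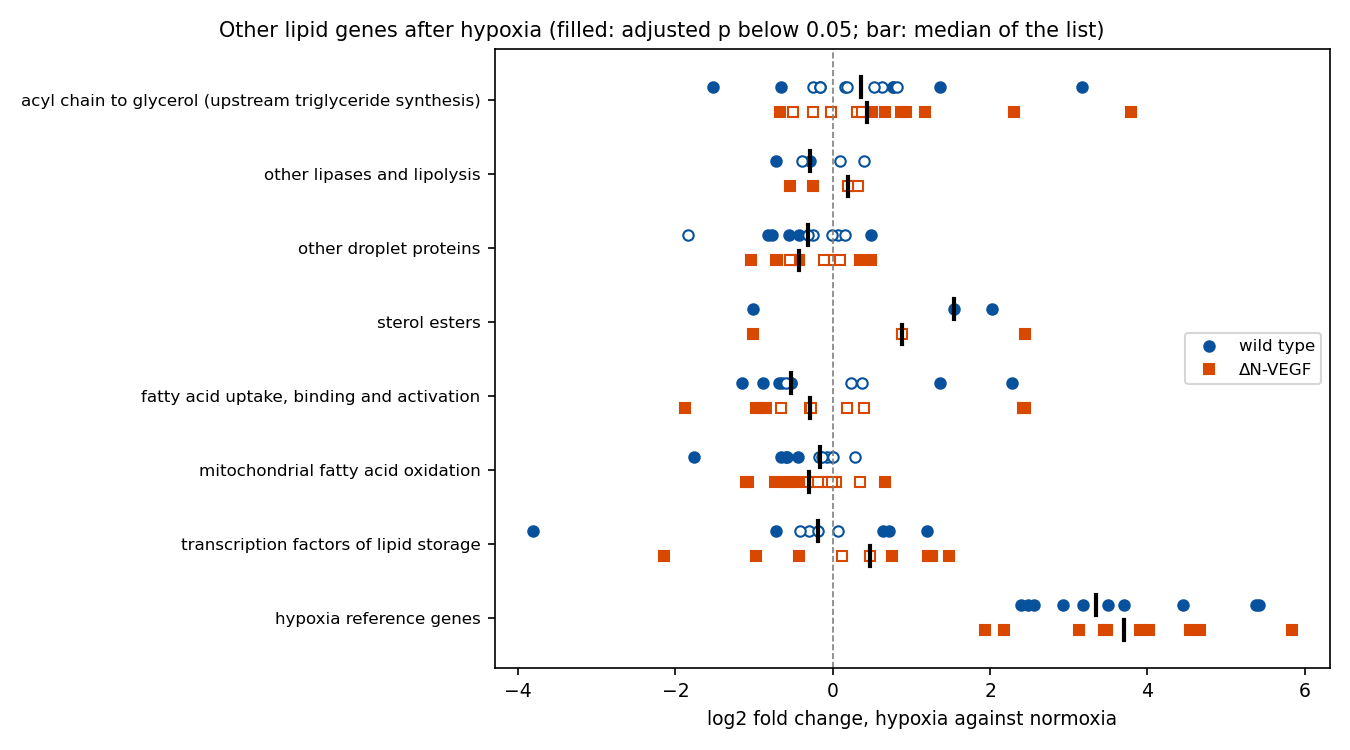
Log2 fold change of each tested gene of the 8 lists, hypoxia against normoxia, in wild-type cells (circles) and ΔN-VEGF cells (squares); filled symbols have an adjusted p below 0.05 and the bar is the median of the list. All 10 hypoxia reference genes lie at 1.93 or above in both lines, and the lists of fat handling hold rises and falls side by side, from -3.81 to 3.80.

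Between the lines, 5 of the 66 genes of fat handling differed in normoxia (2 were higher and 3 lower without N-VEGF), 16 in hypoxia (9 higher and 7 lower) and 4 in their response to hypoxia. Without replicate 2 of wild-type normoxia these counts were 36, 34 and 26, in a fit where 48.9%, 42.4% and 44.4% of all genes were called, against 4.36%, 20.1% and 3.36% with all samples. The pathway genes named above as risen or fallen in wild-type cells kept direction and call without that library.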

How the data were processed

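RNA was sequenced as 80-bp single reads from TruSeq v2 libraries, which do not mark strand. Per the submitters' processing notes and the methods, the authors trimmed reads with Trim Galore and cutadapt 1.10, aligned them with TopHat2 2.1.0 and Bowtie2 2.2.6 to the mouse genome (GRCm38.p6), and deposited raw counts per gene from HTSeq 0.6.1, with no scaling. The authors' own comparisons were made with DESeq2 1.18.1 and were not used. Groups and replicate numbers came from the labels.

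The counts were fitted with edgeR 4.0.16 in R 4.3.3 (limma 3.58.1): filterByExpr, TMM scaling, 1 mean per group over 12 samples, quasi-likelihood F tests with p-values adjusted by Benjamini-Hochberg across 14724 genes, and calls below 0.05. CPM used TMM-scaled library sizes, and log2 CPM for likeness a prior count of 2. Lengths were the union of annotated exons (GRCm38), so levels per kilobase depend on which isoforms are present. Intervals are 95%. The code was tested on simulated counts.

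All 10 members were named, with the 2 largest rises and falls per pathway list and line among called genes, and the 3 genes most like Hilpda and Plin2. The members and lists were chosen with earlier results of these data known. Alternatives were total counts, RLE size factors, a minimum of 10 counts in every sample, no filter, DESeq2 1.42.0, a fold of at least 2, only the 6 samples compared, a replicate block, and samples left out. Deviations from the group mean of samples with the same number correlated at 0.38, 0.50 and 0.36 (numbers 1, 2 and 3) between the normoxia groups. Elsewhere they correlated at 0.11 or less. Deviations from a mean of 3 samples depend on each other, and number 2 was the odd sample in both normoxia groups. That alone can raise all 3 values, so they do not show that samples numbered 1 or 3 are pairs. The labels do not say what a number marks.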

Additional observations from a re-analysis of the deposited data

Results flagged for a closer look

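The response of Dgat2 to hypoxia differed between the lines by a test of the difference itself: it was larger by 1.31 on the log2 scale in the ΔN-VEGF line than in the wild type (edgeR adjusted p = 0.0089, n = 3 samples a group). All 3 ΔN-VEGF hypoxia samples lay above all 3 wild-type hypoxia samples, while the normoxia samples overlapped.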

How the results depend on the processing

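Of 840 values of the 8 tested members under the alternatives, 764 kept both direction and call, 34 lost a call, 20 gained one and 22 changed sign, the last in differences between the lines or between their responses, none of which was called in either fit. Asking for a fold of at least 2 left 4 members after hypoxia in wild-type cells, 3 in ΔN-VEGF cells and 1 between the lines in hypoxia. At that fold 15.7%, 27.2% and 6.81% of all genes were called in these comparisons. In normoxia 0 members were called with only the 6 samples compared, where 0.108% of all genes were, and 0 with the replicate block in those 6 samples, a fit that was added after seeing the data and that called 1 gene in all. Leaving out samples gave 1 to 4 members in normoxia, 1 to 3 between the lines in hypoxia, and 1 to 3 for the difference of responses, the highest when both normoxia samples numbered 2 were left out. The difference of responses had 2 members with total counts, 2 with DESeq2 and 2 with the replicate block, the second being Plin4. Of all genes, these fits called 6.13%, 10.3% and 3.29%, against 3.36% in the edgeR fit with TMM scaling and no block. The replicate block over all 12 samples changed no other call. With total counts the signs turned for Plin2 (-0.15), Pnpla2 (-0.15) and Abhd5 (-0.13) between the lines in hypoxia, and for Hilpda (-0.030) and Plin3 (-0.10) in the difference of responses. With no filter they turned for Dgat1 (0.070) and Dgat2 (0.060) in normoxia and for Plin3 (-0.034) in the difference of responses, and the replicate block in the 6 normoxia samples gave Dgat2 0.0057. Leaving samples out gave ranges of -0.13 to 0.15 for Dgat1 and -0.18 to 0.087 for Dgat2 in normoxia, -0.18 to 0.35 for Hilpda and -0.077 to 0.24 for Plin3 in the difference of responses, and -0.033 to 0.16 for Pnpla2 in hypoxia. Of the 66 genes of fat handling, leaving out samples (chosen after seeing the data, except for replicate 2 of wild-type normoxia) gave 26 to 53 called in wild-type hypoxia, 3 to 43 between the lines in normoxia, 8 to 47 in hypoxia and 1 to 36 for the difference of responses, each highest without both normoxia samples numbered 2, where 65.3%, 53.6%, 55.8% and 52.8% of all genes were called. Leaving out replicate 1 or 3 of wild-type hypoxia, or 2 or 3 of ΔN-VEGF hypoxia, gave 8 or 9 in hypoxia in place of 16. In those fits 10.1% to 10.9% of all genes were called, in place of 20.1%. Total counts gave 2 for the difference of responses in place of 4, where 6.13% of all genes were called in place of 3.36%. The cause was not tested. The depth limits what can be said of G0s2 and Plin5, which were at or near 0, and of Plin4.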
